A study of Homo sapiens with 4 samples.

Results

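Hsa-miR-221 and hsa-miR-222 were followed in the small RNA of 4 liver cancer cell populations. They are 2 of the 1733 mature miRNAs in the count files and were taken by name, as the guide strands of their hairpins. The libraries came from the hepatoma lines Hep3B and Huh7, both established HCC lines, and from Hep3B-C and Huh7-C, the stem-like populations (HCSCs) that the authors had cultured from each of these lines with an enrichment system of their own, whose steps are not given in the sources used here. No treatment, dose or time is given for any of them. Each condition had 1 library, so no value below has a replicate check. Every interval and exact p covers the counting noise of the 1 or 2 libraries it comes from, and not the variation between cultures. PCR copies of a read were not separated. In such bulk RNA, fewer cells holding a miRNA and fewer copies in each cell cannot be told apart.

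MiR-221 and miR-222 are made from neighbouring hairpins of 1 primary transcript. They share a seed, the bases that pair with target mRNAs, and are known to repress the cell cycle inhibitors CDKN1B (p27) and CDKN1C (p57) and the metalloproteinase inhibitor TIMP3. Both are often described as raised in hepatocellular carcinoma. Each hairpin yields a guide strand and, from the other arm, a passenger strand that miRBase release 17 marks with an asterisk. The guide is the strand usually retained by Argonaute, and the passenger is usually degraded.

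The mature sequences are shown because the shared seed is what makes the guides a family. Capitals mark the seed (bases 2 to 8), the sequences are from RefSeq on GRCh38.p14, and both members had an entry. The RefSeq set used held no entry for the passenger strand hsa-miR-221*, so its sequence is not shown.
hsa-miR-221: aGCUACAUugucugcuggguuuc
hsa-miR-222: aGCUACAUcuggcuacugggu
hsa-miR-222*: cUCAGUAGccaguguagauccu
The guides had their first 8 bases in common and differed after them, with lengths of 23 and 21 bases. Of the 2370 human mature miRNAs in the same RefSeq set, only these 2 had this seed. The passenger strand hsa-miR-222* had another one.

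The hairpins are shown to place the guides, in capitals, on their 3′ arms, since the counts of the 5′ arms are compared with them below.
MIR221: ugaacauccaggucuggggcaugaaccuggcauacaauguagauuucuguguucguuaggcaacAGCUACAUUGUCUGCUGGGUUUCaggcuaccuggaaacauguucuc
MIR222: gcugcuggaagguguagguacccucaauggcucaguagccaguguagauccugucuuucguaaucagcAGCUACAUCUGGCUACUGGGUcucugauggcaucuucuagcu
MIR221 lies on the minus strand of chromosome X of GRCh38 from 45746157 to 45746266, and MIR222 from 45747015 to 45747124, with 748 bases between them. GENCODE release 29 places both hairpins in an intron of the long non-coding RNA gene MIR222HG (45745211 to 45770274). The count files hold no coordinates, and the reads had been mapped by the authors to an older build.

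The 4 libraries held between 1739278 and 5741567 miRNA counts. These made up between 10.36% (Hep3B) and 54.05% (Huh7) of the total reads, so the scale chosen decides part of every comparison of levels. The main scale is TPM, the count per 1000000 total reads, which is the measure of the study. With it, for miRNAs that reached 10 counts in a library of the pair, the median log2 fold-change was 1.42 for the 475 of the Hep3B pair and -0.67 for the 431 of the Huh7 pair. Hepatocyte miRNA hsa-miR-122 had 397 counts in Hep3B and 149892 in Hep3B-C, with 489443 in Huh7 and 144814 in Huh7-C, so this marker of liver origin was low in the Hep3B library.

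Hsa-miR-221 was among the miRNAs with more counts in every library without being one of the dominant ones. It had 1167 counts in Hep3B and 1073 in Hep3B-C, with 1754 in Huh7 and 907 in Huh7-C. In TPM these were 69.5 (95% Poisson interval 65.6 to 73.6), 69.5 (65.4 to 73.8), 165 (157 to 173) and 84.6 (79.2 to 90.3). Huh7 was the highest and Huh7-C the next, and Hep3B and Hep3B-C did not differ beyond counting noise. Among the 664 to 773 miRNAs detected in a library, hsa-miR-221 ranked 66 in Hep3B and 101 in Hep3B-C, with 84 in Huh7 and 87 in Huh7-C.

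Hsa-miR-222 had fewer counts than its neighbour in each library. It had 313 counts in Hep3B and 443 in Hep3B-C, with 669 in Huh7 and 583 in Huh7-C. The TPM values were 18.7 (16.6 to 20.8), 28.7 (26.1 to 31.5), 63.0 (58.3 to 67.9) and 54.4 (50.1 to 59.0). Both libraries of the Huh7 line were above both of the Hep3B line, and the intervals of Huh7 and Huh7-C overlapped. Its ranks were 122, 145, 110 and 95 in the same order of libraries.

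The order of the libraries was another one when the members were read as a share of miRNA counts. Hsa-miR-221 then made up 0.0671% of miRNA counts in Hep3B (95% Clopper-Pearson interval 0.0633% to 0.0711%), 0.0305% in Huh7, 0.0224% in Huh7-C and 0.0198% in Hep3B-C. For hsa-miR-222 the shares were 0.018% in Hep3B, 0.0144% in Huh7-C, 0.0117% in Huh7 and 0.00816% in Hep3B-C. Hep3B, the library with the fewest miRNA reads, thus had the lowest TPM of hsa-miR-222 and the highest share of both members.

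**Figure D1:**
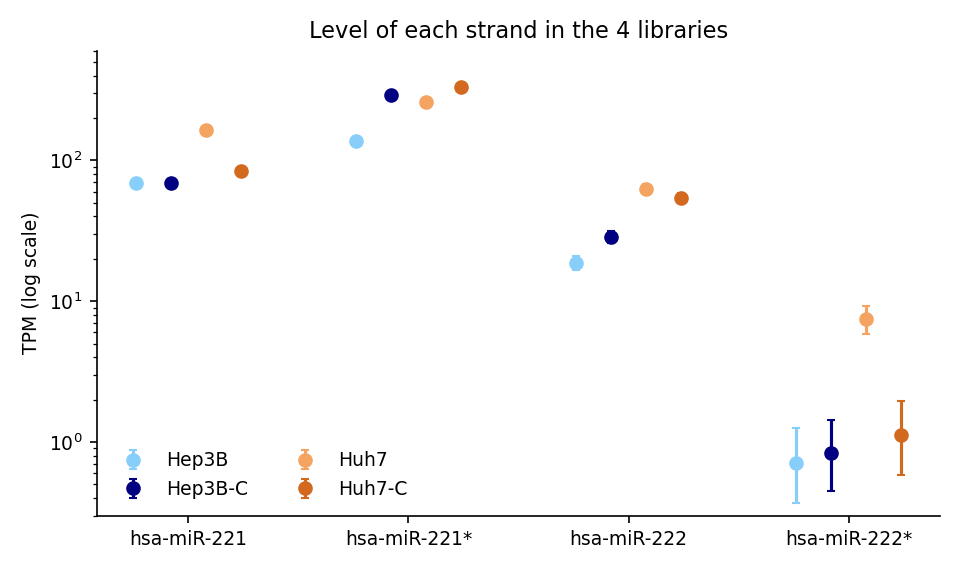
TPM (log scale) of the guide and passenger strands of both hairpins in the 4 libraries. Points are single libraries and bars are 95% Poisson intervals of the counts. Hsa-miR-221* lies above hsa-miR-221 in each library (137 against 69.5 TPM in Hep3B), and hsa-miR-222* lies at 0.715 to 7.44 TPM.

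The strand marked as passenger had more counts than the guide of the miR-221 hairpin. Hsa-miR-221* had 2298 counts in Hep3B and 4527 in Hep3B-C, with 2742 in Huh7 and 3533 in Huh7-C, which is 1.97, 4.22, 1.56 and 3.90 counts for each count of the guide. The other hairpin had the usual order. Hsa-miR-222* had 12 counts in Hep3B and 13 in Hep3B-C, with 79 in Huh7 and 12 in Huh7-C. Of 78 hairpins with a guide and an asterisk strand, a mean of at least 100 counts of both together per library and some count of either in each library, 7 (8.97%) had more of the asterisk strand in each of the 4 libraries. MiR-221 was one of the 7, and the median guide share over the 78 was between 99.0% and 99.2%. Strands were paired by name, so a guide with several asterisk strands, such as hsa-miR-181a, was set against hsa-miR-181a* alone. For such guides the share is not one within a single hairpin.

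The guide share of the miR-221 hairpin was lower in both HCSC libraries, and as a ratio of counts within a library it does not depend on the library size. Hsa-miR-221 was 33.7% of the counts of its hairpin in Hep3B (95% Clopper-Pearson interval 32.1% to 35.3%) and 19.2% in Hep3B-C (18.1% to 20.2%). In the other line it was 39.0% in Huh7 (37.6% to 40.5%) and 20.4% in Huh7-C (19.3% to 21.6%). Within each pair the intervals lay apart, while the HCSC libraries overlapped with each other. The ratio of hsa-miR-221* to hsa-miR-221 was 2.14-fold higher in Hep3B-C than in Hep3B and 2.49-fold higher in Huh7-C than in Huh7.

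The rest of the 78 hairpins were read in the same way. Hairpins whose arms are named -5p and -3p, such as that of miR-151, were left out, so the shares below do not cover them. A guide share lower in the HCSCs with intervals apart was found in the Hep3B pair for 8 of the 78 hairpins (10.3%), in the Huh7 pair for 5 (6.41%) and in both for 3 (3.85%). The 3 were miR-221, miR-30a and miR-30e, named after their values were seen. The opposite, a share higher in both HCSC libraries, was found for 5 hairpins (6.41%). The share of miR-221 differed by -14.5 points in the Hep3B pair and by -18.6 points in the Huh7 pair. With median guide shares of 99.0% or more, most hairpins had little room to move in points, and the separation of intervals depends on depth. On the log2 scale of the ratio of asterisk strand to guide, which has no such limit, miR-221 was at 1.10 in the Hep3B pair, with 7 hairpins higher among the 59 with counts of both strands in both libraries (median -0.06). In the Huh7 pair it was at 1.32, with 3 hairpins higher of 60 (median -0.47).

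The miR-222 hairpin differed from its neighbour in this respect. Its guide made up 96.3% of the counts in Hep3B (93.6% to 98.1%) and 97.1% in Hep3B-C (95.2% to 98.5%), intervals that overlapped. The share was 89.4% in Huh7 (87.0% to 91.5%) and 98.0% in Huh7-C (96.5% to 99.0%), so that it was higher in Huh7-C with intervals apart. With 12 or 13 counts of hsa-miR-222* in 3 of the libraries, the difference in the Huh7 pair rested on the 79 counts in Huh7.

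**Figure D2:**
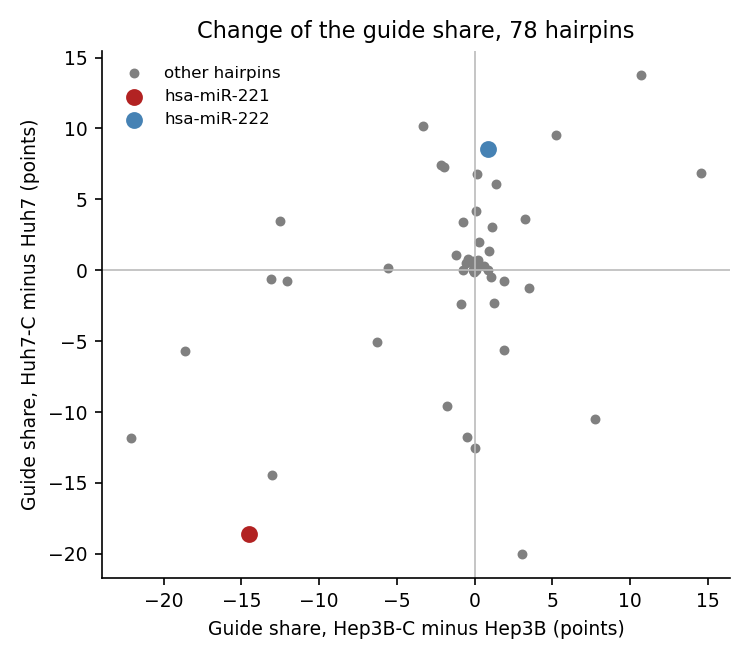
Difference of the guide share (percentage points) in the Hep3B pair (horizontal axis) and the Huh7 pair (vertical axis) for 78 hairpins, each point being 1 hairpin. The miR-221 hairpin lies at -14.5 and -18.6 points, in the quadrant where both HCSC libraries had less of the guide, and miR-222 at 0.841 and 8.54 points.

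Within each library, hsa-miR-221 had more counts than hsa-miR-222, by a ratio of 3.73 in Hep3B and 2.42 in Hep3B-C, with 2.62 in Huh7 and 1.56 in Huh7-C. As a share of the counts of both guides, hsa-miR-221 was 78.9% in Hep3B (95% Clopper-Pearson interval 76.7% to 80.9%) and 70.8% in Hep3B-C (68.4% to 73.1%). It was 72.4% in Huh7 (70.6% to 74.2%) and 60.9% in Huh7-C (58.3% to 63.4%). In both pairs the HCSC library held relatively less hsa-miR-221, with intervals apart, and the ratio of hsa-miR-222 to hsa-miR-221 was 1.54-fold higher in Hep3B-C and 1.69-fold higher in Huh7-C. Between cell lines, the shares of Hep3B-C and Huh7 overlapped. Counts of both arms together gave another picture, since the ratio of the miR-221 hairpin to the miR-222 hairpin was 10.7 in Hep3B and 12.3 in Hep3B-C, with 6.01 in Huh7 and 7.46 in Huh7-C. Ratios between different sequences are ratios of read counts and not of molar amounts.

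**Figure D3:**
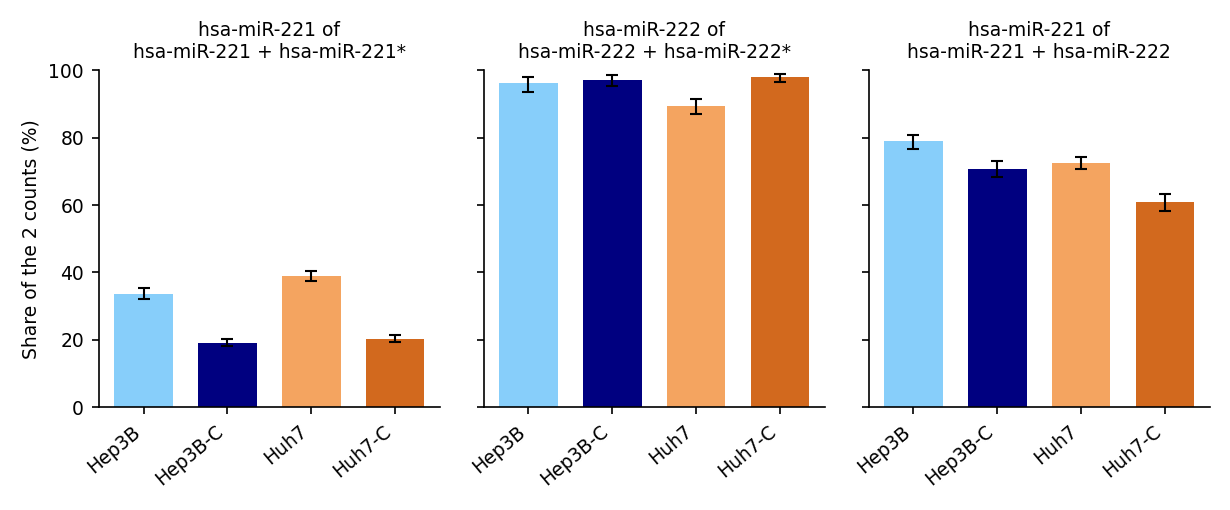
Share (%) of the guide in the counts of the miR-221 hairpin (left) and the miR-222 hairpin (middle), and of hsa-miR-221 in the counts of both guides (right), by library, with 95% Clopper-Pearson intervals. The left bars are 33.7% and 39.0% in the HCC cells and 19.2% and 20.4% in the HCSCs.

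To compare HCSCs with the HCC cells they came from, TPM values were set against each other within each pair, and a call needed a log2 fold-change of 1 or more in either direction and 0.01 or less for the adjusted p (exact Poisson test of Audic and Claverie, Benjamini-Hochberg adjustment over all miRNAs tested). In the Hep3B pair 34.1% of the 834 miRNAs tested were called higher and 2.52% lower. In the Huh7 pair 3.11% of 772 were called higher and 17.1% lower. The balance depends on the scale, since by total miRNA counts the 284 higher and 21 lower of the Hep3B pair became 47 and 112. In TPM neither member was called in either pair, while by total miRNA counts both were called lower in Hep3B-C.

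In the Hep3B pair, hsa-miR-221 had the same TPM in both libraries, the log2 fold-change being -0.001 (95% interval -0.12 to 0.12; exact Poisson test, adjusted p = 0.989). Hsa-miR-222 was 1.54-fold higher in Hep3B-C, under the fold asked for (0.62 on the log2 scale, interval 0.41 to 0.83; adjusted p = 1.48e-08, exact Poisson test). Against the median of this pair these are differences of -1.42 and -0.80, and 11.6% and 21.3% of the 475 miRNAs had a lower fold-change. The passenger strand hsa-miR-221* rose 2.14-fold in TPM, a direction not shared by the scales taken from miRNA counts (1.10, interval 1.03 to 1.17; adjusted p = 4.01e-205, exact Poisson test). For hsa-miR-222* the log2 fold-change was 0.24, with an interval from -1.01 to 1.5.

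In the Huh7 pair, hsa-miR-221 was 0.513 times its HCC level in Huh7-C, just under the fold asked for (log2 fold-change -0.96, interval -1.08 to -0.85; exact Poisson test, adjusted p = 3.56e-62). Hsa-miR-222 was at -0.21 on the log2 scale (interval -0.37 to -0.05; adjusted p = 0.0273, exact Poisson test). Of the 431 miRNAs of this pair, 39.9% had a lower fold-change than hsa-miR-221 and 64.5% a lower one than hsa-miR-222, so hsa-miR-222 lay above the median. The value for hsa-miR-221* was 0.35 (interval 0.28 to 0.43), which was not called. Hsa-miR-222* fell from 79 to 12 counts (log2 fold-change -2.73, interval -3.74 to -1.85; adjusted p = 7.57e-13, exact Poisson test).

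**Figure D4:**
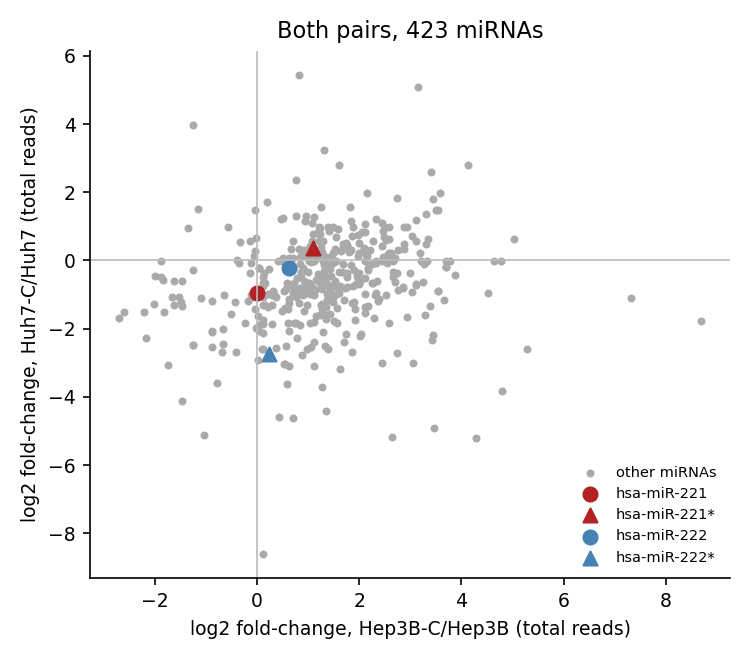
Log2 fold-change of TPM in the Hep3B pair (horizontal axis) and in the Huh7 pair (vertical axis) for 423 miRNAs with at least 10 counts in a library and none at 0. Circles are the guides and triangles the passenger strands of the members, with hsa-miR-221 at -0.001 and -0.96 and hsa-miR-222 at 0.62 and -0.21.

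For the guides and hsa-miR-221* in the Hep3B pair, the range over the scales was wider than the counting interval. In the Hep3B pair, where miRNA reads went from 10.36% to 35.17% of the library, hsa-miR-221 was lower in Hep3B-C by every scale taken from the miRNA counts, with a log2 fold-change of -1.76 by total miRNA counts, -1.41 by TMM and -1.18 by DESeq2 size factors, each past the threshold. Hsa-miR-222 was at -1.14, -0.79 and -0.56 in the same order, a direction opposite to that in TPM, and the first of these was past the threshold. Hsa-miR-221* was likewise at values between -0.66 and -0.08. In the Huh7 pair hsa-miR-221 lay between -0.96 and -0.39 on the 4 scales, and hsa-miR-222 between -0.21 and 0.36. The part of the miRNA share of the libraries in these values was not tested.

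**Figure D5:**
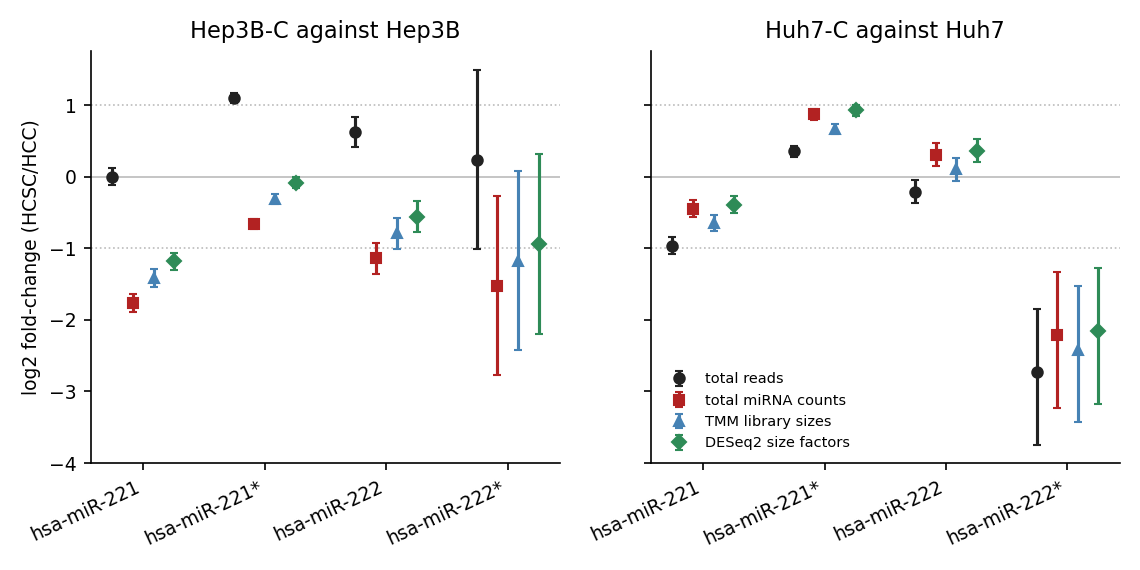
Log2 fold-change of HCSCs over HCC cells for each strand in the Hep3B pair (left) and the Huh7 pair (right) on 4 scales, with 95% exact binomial intervals and dotted lines at the threshold of 1. Hsa-miR-221 in the left panel moves from -0.001 by total reads to -1.76 by total miRNA counts.

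Between the HCC lines, both members were called higher in Huh7 than in Hep3B in TPM, which the other scales did not give. Hsa-miR-221 was 2.37-fold higher (log2 fold-change 1.25, interval 1.14 to 1.36; exact Poisson test, adjusted p = 2.85e-118) and hsa-miR-222 3.38-fold higher (1.76, interval 1.56 to 1.95; adjusted p = 2.5e-76, exact Poisson test). Of the 828 miRNAs tested, 34.1% were called higher and 9.18% lower, and the median log2 fold-change was 1.59, so both members lay near it. By total miRNA counts both were lower in Huh7 (-1.14 and -0.63), by TMM hsa-miR-221 was at -0.21 and hsa-miR-222 at 0.29, and by DESeq2 size factors they were at -0.20 and 0.31. Of these 4 scales, TPM was the only one by which either member was called higher in Huh7.

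Between the HCSCs, neither member was called, where 14.4% of 868 miRNAs were called higher in Huh7-C and 23.0% lower. Hsa-miR-221 was 1.22-fold higher in Huh7-C than in Hep3B-C (log2 fold-change 0.28, interval 0.16 to 0.41; exact Poisson test, adjusted p = 3.65e-05). Hsa-miR-222 was 1.90-fold higher (0.92, interval 0.74 to 1.10; adjusted p = 7.93e-24, exact Poisson test). In this comparison the 4 scales gave 1 direction for each member, 0.18 to 0.59 for hsa-miR-221 and 0.82 to 1.23 for hsa-miR-222, and hsa-miR-222 was past the threshold by TMM and DESeq2 size factors. The comparisons between lines share their libraries with those within the pairs.

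Taking the lines as replicates of each other, with the parent line as a block, edgeR's quasi-likelihood test with TMM library sizes gave a log2 fold-change of HCSCs over HCC cells of -0.81 ± 0.58 (SE) for hsa-miR-221 (adjusted p = 0.689, edgeR with Benjamini-Hochberg adjustment). For hsa-miR-222 it was -0.12 ± 0.58 (adjusted p = 0.955, edgeR). With total reads as library sizes the values were -0.48 ± 1.64 and 0.20 ± 1.71, so that the sign for hsa-miR-222 turned. The passenger strands had values of 0.40 ± 0.57 (hsa-miR-221*) and -1.59 ± 0.63 (hsa-miR-222*), neither past the threshold. No miRNA of the 443 fitted was called higher or lower (0.0% each), with 31 at an unadjusted p under 0.05 in edgeR, and DESeq2 called 4 higher and 1 lower. The fit had 1 residual degree of freedom and a common biological coefficient of variation of 0.5465.

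The miRNAs whose pattern over the 4 libraries was most like that of a member were found among 215 miRNAs with a mean of at least 100 counts, by the Euclidean distance of centred log2(TPM + 1). For hsa-miR-221 they were hsa-miR-4677-3p (distance 0.197), hsa-miR-106b (0.247) and hsa-miR-126* (0.508). Hsa-miR-106b, for example, was at 181, 229, 501 and 254 TPM from Hep3B and Hep3B-C to Huh7 and Huh7-C. For hsa-miR-222 they were hsa-miR-148b* (0.291), hsa-miR-126 (0.292) and hsa-miR-532-5p (0.407). Although made from 1 transcript, the members were not each other's nearest, with a distance of 0.868, at which hsa-miR-222 was in place 15 for hsa-miR-221 and hsa-miR-221 in place 20 for hsa-miR-222.

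Other miRNAs of the short arm of chromosome X, mostly from the cluster of miR-532, miR-500 and miR-660, gave 14 of 15 listed names with counts. Of the 14, 2 were called higher and 0 lower in Hep3B-C, while in Huh7-C these were 0 and 2. Over all miRNAs tested, 34.1% were called higher and 2.52% lower in Hep3B-C, and the shares for Huh7-C were 3.11% and 17.1%. Of miRNAs that reached 10 counts in a library of the pair, 283 of 475 were called higher in Hep3B-C and 137 of 431 lower in Huh7-C. In each case 2 of 14 lay below that share, although some of the 14 did not reach 10 counts. The median log2 fold-changes were 0.78 and -0.44 beside 1.54 and -0.65 over all miRNAs tested. The most abundant, hsa-miR-532-5p, was at 39.8, 60.9, 167 and 157 TPM from Hep3B and Hep3B-C to Huh7 and Huh7-C, with log2 fold-changes of 0.61 and -0.08 in the pairs. Hsa-miR-362-5p had the largest increase, in Hep3B-C (59 to 175 counts, 1.69) and hsa-miR-532-3p the largest decrease, in Huh7-C (42 to 10 counts, -2.08). Between Huh7 and Hep3B, 9 of the 14 were called higher and 1 lower, beside 34.1% and 9.18% of all miRNAs tested. Of the 476 miRNAs that reached 10 counts in either library, 265 were called higher. The median log2 fold-change of the 14 was 1.72 beside 1.60 over all miRNAs tested. Hsa-miR-500a and hsa-miR-500b had identical counts and are not separate measurements. All of these calls are in TPM, and by total miRNA counts the calls between Huh7 and Hep3B over all miRNAs turned from 282 higher and 76 lower to 84 and 249.

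Of 14 other miRNAs often described as raised in liver cancer, 5 were called higher and 1 lower in Hep3B-C, while in Huh7-C these were 0 and 4. For Hep3B-C, 34.1% of all miRNAs tested were called higher and 2.52% lower, many of them with few counts. Of the 475 that reached 10 counts in Hep3B or Hep3B-C, 283 were called higher, a share that 5 of 14 lay below. The 14 include hsa-miR-155 and hsa-miR-224, which did not reach 10 counts there. For Huh7-C, 3.11% of all miRNAs tested were called higher and 17.1% lower. Of the 431 that reached 10 counts in Huh7 or Huh7-C, 26 were called higher and 137 lower, and 4 of 14 was not above the latter share. The median log2 fold-changes of the 14 were 1.30 and -0.54 beside 1.54 and -0.65 over all miRNAs tested. For listed miRNAs without counts in a library, counts under 3 were also set to 3 in both libraries of the pair. The medians of the 14 were then 0.84 and -0.08, and those over all miRNAs were not computed in this way. The most abundant was hsa-miR-21, with log2 fold-changes of 0.91 in the Hep3B pair (not called) and -1.0 in the Huh7 pair (called lower). Hsa-miR-210 was called lower in both pairs (-2.17 and -2.27), while hsa-miR-182 had the largest increase in Hep3B-C among those with counts in both libraries (2.24) and hsa-miR-25 the highest value in the Huh7 pair (0.83, not called). Hsa-miR-155, at 0 counts in Hep3B and 4 in Hep3B-C, and at 2 in Huh7 and 0 in Huh7-C, had too few counts for a fold. These calls are in TPM.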

How the data were processed

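Small RNA of Hep3B, Hep3B-C, Huh7 and Huh7-C was sequenced by the authors on an Illumina Genome Analyzer II, 1 library each. Alignment was by SOAP on NCBI Build 36.1. Reads shorter than 18 nt, contaminants and redundant reads had been discarded before it, other classes of small RNA were taken out, and counting used miRBase release 17. The study does not define redundant reads. Identical reads were still counted, as the 2566558 counts of hsa-miR-21 in Huh7 show. The deposited values are raw read counts per mature miRNA. TPM was computed here from the counts and the total reads that the study states for each library.

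Pairs were compared by the Audic and Claverie exact test with total reads as sizes. It covered each miRNA counted at least 1 time in the pair, and a TPM of 0 was set to 0.001. Intervals of fold-changes are 95% exact binomial intervals. EdgeR was fitted where 2 or more libraries had 10 or more counts, with 0.05 as the threshold. The SE printed with its values was derived here, as the absolute log2 fold-change over the square root of the test's F statistic. Deviations from the state means correlated between the libraries of a line (Pearson r = 0.836 over 443 miRNAs, which are not independent), and the pairing comes from the parent line.

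The alternatives were other library sizes, tests, filters and a pseudocount. Named besides the members were their passenger strands, the 3 nearest patterns of each, and from 2 lists the most abundant miRNA and the largest increase and decrease. The members and lists were chosen with earlier results of these data known. The tests were checked on simulated data. For the pair test these held counting noise only, so that check does not cover variation between cultures. The mRNA libraries were not analysed here. Sequences and positions are from RefSeq (GRCh38.p14) and GENCODE release 29. Python 3.11.15, scipy 1.17.1, R 4.3.3, edgeR 4.0.16 and DESeq2 1.42.0 were used.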

Additional observations from a re-analysis of the deposited data

Results flagged for a closer look

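Hsa-miR-222 moved in opposite directions in the pairs, with a log2 fold-change of TPM of 0.62 for Hep3B-C over Hep3B and -0.21 for Huh7-C over Huh7, neither past the threshold. Whether the pairs differ was not tested. By total miRNA counts the directions were exchanged, at -1.14 and 0.31.

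Its passenger strand hsa-miR-222* was at 0.24 and -2.73 in these comparisons, and this difference was not tested either. The counts were 12 in Hep3B and 13 in Hep3B-C, with 79 in Huh7 and 12 in Huh7-C.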

How the results depend on the processing

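The exact binomial test, the filter of 10 counts and a pseudocount of 1 TPM changed no call or direction of the members' log2 fold-changes. Nor did edgeR's exact test at a biological coefficient of variation of 0.2. Counting the observed value in both tails, chosen after seeing the data, changed none either. Within the pairs and between the HCSCs, however, neither member had a call to lose. There the adjusted p of edgeR's exact test at 0.2 was 0.112 for hsa-miR-221 in the Huh7 pair. For hsa-miR-222 it was 0.278 in the Hep3B pair and 0.0755 between the HCSCs, each above the threshold. Between Huh7 and Hep3B it was 0.00824 for hsa-miR-221 and 0.000208 for hsa-miR-222. A biological coefficient of variation of 0.4 removed the calls of hsa-miR-221 (1.25) and hsa-miR-222 (1.76) between Huh7 and Hep3B. The scale had more effect. Total miRNA counts gave -1.76 (hsa-miR-221) and -1.14 (hsa-miR-222) in the Hep3B pair, both called lower, and -1.14 (called lower, against higher in TPM) and -0.63 (not called) between Huh7 and Hep3B. TMM gave -1.41 for hsa-miR-221 in the Hep3B pair, -0.21 and 0.29 for the members between Huh7 and Hep3B, and 1.19 for hsa-miR-222 between the HCSCs. DESeq2 size factors gave -1.18, -0.20, 0.31 and 1.23 for the same values. In the Huh7 pair hsa-miR-222 was above 0 on these 3 scales (0.11 to 0.36, not called), and in the Hep3B pair it was below 0 (-1.14 to -0.56). The cause was not tested. The shares within a library do not change with the scale.

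Over both lines, edgeR called 0 and 0 miRNAs under each alternative, and DESeq2 4 and 1. With total reads as library sizes the members were at -0.48 and 0.20. Without the parent line as a block the members were at -0.76 and 0.01, neither past the threshold. Leaving out each library in turn, also without the block, gave -1.21 to -0.55 for hsa-miR-221. For hsa-miR-222 it gave -0.87 to 0.44, so that the sign changed.

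The numbers of miRNAs called also moved. In the Hep3B pair the 284 higher and 21 lower became 47 and 112 by total miRNA counts, 71 and 76 by TMM, 96 and 59 by DESeq2 size factors, and 25 and 0 at a coefficient of 0.4 (9 lower at 0.2). In the Huh7 pair the 24 and 132 became 56 and 74, 40 and 90, 59 and 71, and 5 and 10 (15 and 69 at 0.2). Between Huh7 and Hep3B the 282 and 76 became 84 and 249, 129 and 162, 131 and 162, and 109 and 38. Between the HCSCs the 125 and 200 became 31 and 82 at 0.4.

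Depth leaves an interval of about 0.12 on either side of the log2 fold-change of hsa-miR-221 in the Hep3B pair, and of more than 1 for hsa-miR-222*. With 1 library per condition, variation between cultures was not measured.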

Other observations

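Besides miR-221, the hairpins with more counts of the asterisk strand in each library were those of miR-193b, miR-365, miR-374a, miR-500a, miR-664 and miR-675. The guide share of miR-193b differed by -13.1 points in the Hep3B pair and by -14.4 points in the Huh7 pair, and in the latter the intervals overlapped (41.6% to 56.7% in Huh7 and 23.9% to 46.9% in Huh7-C). For miR-30a the share differed by -18.6 and -5.67 points and for miR-30e by -22.1 and -11.9 points.

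Counts of all 4 strands of both hairpins together came to 226 TPM in Hep3B and 392 in Hep3B-C, with 494 in Huh7 and 470 in Huh7-C. The guides alone summed to 88.2, 98.2, 228 and 139 TPM in the same order. Hsa-miR-221* was at 137 TPM in Hep3B and 293 TPM in Hep3B-C.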
